A study of Mus musculus with 12 samples.

Results

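The 128 genes described here are long intergenic noncoding RNAs (lincRNAs) expressed in mouse bone marrow monocytes and in the dendritic cells grown from them. They were chosen by annotation and level: the gene identifiers of the count files were matched to GENCODE M21 on GRCm38, and autosomal genes of type lincRNA were kept where at least 2 of 12 libraries held 2 or more CPM (the read count scaled by the gene reads of its library). This left 128 of 2898 autosomal lincRNAs, among 47643 gene identifiers in the files. The libraries form 6 groups of 2, all on a C57BL/6 background. WT and Nr4a3 KO monocytes were sorted from bone marrow and taken either undifferentiated or after 1 or 2 days of culture in GM-CSF and IL-4, conditions under which monocytes become dendritic cells. Nr4a3 encodes an orphan nuclear receptor, and the study asked what it contributes to that differentiation. Each group of 2 came from independent experiments, and the number of mice behind a library is not stated, so p-values measure only the spread between these samples. Poly(A) RNA was captured from 20 ng of total RNA and sequenced from stranded libraries after 16 PCR cycles. Gene reads per library ranged from 5905266 (KO day 2 replicate 1) to 18447405 (KO day 1 replicate 2).

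A lincRNA is transcribed from its own gene between protein-coding genes, is spliced and polyadenylated like a messenger RNA in most cases, and is not known to encode a protein. Some act as scaffolds of nuclear bodies, some are precursors from which microRNAs (miRNAs) or small nucleolar RNAs (snoRNAs) are cut, and some alter the transcription of the gene beside them. In myeloid cells the class is best known for Neat1 and Malat1, for the miR-155 host gene and for Morrbid, an RNA that controls the life span of short-lived myeloid cells.

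Nr4a3 itself had 0.306 and 0 CPM (after TMM scaling, as for all levels below) in replicates 1 and 2 of WT monocytes, 16.5 and 10.4 in WT day 1 and 1287 and 1358 in WT day 2. The KO libraries held 0.928 and 0, 6.58 and 0 and 39 and 19.3 CPM at the same stages. The library labelled KO day 1 replicate 1 thus lay closer to WT day 1 replicate 2 than to the other KO library of that day, which held no Nr4a3 read, and the labels do not say what was deleted. Summed levels of 6 dendritic cell markers were 167 to 216 CPM in monocytes, 6658 to 10090 at day 1 and 24759 to 32031 at day 2, and those of 6 monocyte markers went from 8599 to 11793 down to 660.4 to 2367. Neutrophil markers (7 genes) summed to 3646 CPM in WT monocytes replicate 2 against 753 to 1746 in the other monocyte libraries. Erythroid markers (6 genes) summed to 31.8 to 174 CPM in monocytes, 0 to 0.571 at day 1 and 17.3 to 110 at day 2, and those of B, T and NK cells to at most 16.1 in any library. Dates in the file names put monocytes and day 1 in the same experiments and day 2 in others, so in comparisons with day 2 the day cannot be told apart from the experiment. In bulk RNA, fewer cells of a type and less RNA per cell cannot be told apart either.

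Of the 128 lincRNAs, 10 carry annotated miRNA genes on their own strand, 18 miRNA genes in all. The 11 mature miRNAs below were picked by name from the 33 of these genes. They come from the 5 hosts called in a culture comparison, with the seed (bases 2 to 8, which pair with targets) in capitals. Mir142hg and A430106G13Rik were called in KO only. Sequences are from RefSeq on GRCm38.p6, and all 18 miRNA genes were found there. The reads counted here are from the poly(A) host transcript and do not measure the mature miRNA.
miR-155-5p (Mir155hg, chr16:84714143-84714165): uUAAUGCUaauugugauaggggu
miR-142a-5p (Mir142hg, chr11:87756867-87756887): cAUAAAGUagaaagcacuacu
miR-142a-3p (Mir142hg, chr11:87756903-87756925): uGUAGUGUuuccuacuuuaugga
miR-9-5p (Mir9-3hg, chr7:79505279-79505301): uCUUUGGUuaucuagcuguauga
miR-181b-5p (A430106G13Rik, chr1:137966650-137966673): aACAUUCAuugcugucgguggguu
miR-17-5p (Mir17hg, chr14:115043684-115043706): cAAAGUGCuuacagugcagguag
miR-20a-5p (Mir17hg, chr14:115044183-115044205): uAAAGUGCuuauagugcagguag
miR-18a-5p (Mir17hg, chr14:115043867-115043889): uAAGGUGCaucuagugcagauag
miR-19a-3p (Mir17hg, chr14:115044048-115044070): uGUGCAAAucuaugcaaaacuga
miR-19b-3p (Mir17hg, chr14:115044358-115044380): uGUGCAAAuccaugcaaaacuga
miR-92a-3p (Mir17hg, chr14:115044476-115044496): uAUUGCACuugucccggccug
All of them lie on the + strand. These 11 miRNAs have 9 distinct seeds. The Mir17hg transcript alone carries the seed AAAGUGC on both miR-17-5p and miR-20a-5p and the seed GUGCAAA on both miR-19a-3p and miR-19b-3p. The first is found in 7 and the second in 2 of the 1679 mature mouse miRNAs in the table. The seeds of miR-155-5p, miR-142a-5p, miR-142a-3p and miR-9-5p occur only once in it.

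Promoters are shown for 3 lincRNAs that had no or almost no reads in monocytes, had reads in culture and are among the members whose genotype values at day 2 are given below. The 3 were picked by name and not by a rule. Mir155hg, Gm42601 and Gm26535 fit the same description and are not shown. Each promoter shown runs from 250 bases before to 50 after the RefSeq start on GRCm38.p6, on the gene's own strand. Promoters of 68 members were found in the RefSeq table. The capitals mark the NGFI-B response element in the first (read as TGACCTTT here, AAAGGTCA on the other strand), to which NR4A receptors bind as monomers, and the cyclic AMP response element TGACGTCA in the second. The third, for which none of the letters are capitals, holds neither.
4930512J16Rik (chr6:89285676-89285975, - strand): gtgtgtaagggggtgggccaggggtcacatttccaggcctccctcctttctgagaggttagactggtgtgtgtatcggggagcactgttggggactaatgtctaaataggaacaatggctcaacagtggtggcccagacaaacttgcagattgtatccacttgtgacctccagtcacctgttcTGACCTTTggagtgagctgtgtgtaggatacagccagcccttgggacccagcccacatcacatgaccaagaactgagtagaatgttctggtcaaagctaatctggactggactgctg
Mir9-3hg (chr7:79499776-79500075, + strand): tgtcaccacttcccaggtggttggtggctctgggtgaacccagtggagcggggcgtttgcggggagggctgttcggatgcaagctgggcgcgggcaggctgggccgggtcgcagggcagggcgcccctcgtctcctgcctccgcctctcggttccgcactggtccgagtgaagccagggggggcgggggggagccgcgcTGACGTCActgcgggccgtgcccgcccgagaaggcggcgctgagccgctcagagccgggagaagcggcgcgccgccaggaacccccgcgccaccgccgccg
Gm20465 (chr5:33311092-33311391, - strand): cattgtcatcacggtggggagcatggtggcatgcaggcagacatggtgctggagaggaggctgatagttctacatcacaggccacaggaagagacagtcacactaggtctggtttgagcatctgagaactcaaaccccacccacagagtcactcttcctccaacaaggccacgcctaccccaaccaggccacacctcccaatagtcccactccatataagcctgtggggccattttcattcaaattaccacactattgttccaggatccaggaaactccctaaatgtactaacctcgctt
The AAAGGTCA match begins 67 bases before the start of 4930512J16Rik, and this was the only one among the 68 member promoters (1.47%, against 1.70% of all 27026 promoters of the table, both strands searched). TGACGTCA begins 51 bases before the start of Mir9-3hg and was found in 3 member promoters (4.41%, against 2.03% of all). The Mir9-3hg promoter holds 35 CpG dinucleotides, the other two hold 1 and 3, and the median over member promoters was 8.5. The PU.1 core GAGGAA, the site of a myeloid master factor, was in 28 of the 68 (41.2%, against 31.3% of all promoters), Gm20465 among them at 96 bases before the start on the opposite strand. The STAT element TTCNNNGAA was in 3 (4.41% against 9.55%). Of the other motifs searched, the loose NF-kB element was in 54.4% against 53.5%, and the strict one in 0% against 0.174%. The shares were 8.82% against 8.97% for AP-1, 42.6% against 41.1% for the CCAAT box and 10.3% against 8.09% for the E-box. For the TATA box they were 7.35% against 15.7%. No difference between member promoters and all promoters was tested. A match describes the letters and says nothing of binding.

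Levels spanned a wide range. The median member had 2.81 CPM over the 12 libraries, and 25 members had a mean of at least 10 CPM. Per exonic kilobase the median was 1.42 CPM, against 6.48 for the protein-coding genes tested. The level rule was met in all 12 libraries by 32 members and in libraries of 1 stage only by 25, so those 25 were bound to differ in level between stages. For 4 members it was met in libraries of 1 group only, WT day 2 for Gm20465 and Gm26535 and WT monocytes for Gm5547 and Lppos, so these were bound to be high in that group, and their differences from it are given as a description. All 128 passed the low-count filter of the tests. The values of the members nearest the limit, by the second-highest library, were 2.08 (D930028M14Rik), 2.03 (Gm26606) and 2.01 (Lppos) CPM, and Gm44067 (1.97), Gm20703 (1.96) and Gm29340 (1.93) stayed just outside it.

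The highest member was not a lincRNA by RefSeq. Gm42418 had 4479 CPM per exonic kb and is listed there as Rn18s-rs5, a pseudogene of 18S ribosomal RNA, and its neighbour Gm26917 on chromosome 17 stood sixth with 40.1. Together this pair took 11777 and 19270 CPM in WT monocytes, 6345 and 9461 in KO monocytes and 5497 to 7710 in the cultured libraries. WT monocytes replicate 2 therefore held the most rRNA-like reads of all libraries. Gm10076, second per kilobase with 130.5 CPM, is a pseudogene in RefSeq as well. Next came Malat1 (101), Mir142hg (79.9) and AI839979 (45.1), followed after Gm26917 by AW112010 (26.8), Gm35037 (23.8), 1110002J07Rik (21.7) and 1810058I24Rik (16.7 CPM per exonic kb). Of the 92 members found in RefSeq, 80 were long noncoding RNAs, 9 protein-coding and 3 pseudogenes. 1810058I24Rik, which ranged from 31.3 to 66.9 CPM and was called in no comparison, is one of the 9.

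Beyond level, the members differed from the 2770 autosomal lincRNAs that failed the rule in length and position, given here as a description. Their median exonic length was 2.35 kb against 0.997 kb, and 24.2% had a single exon against 8.20%. The nearest protein-coding gene lay a median of 4.10 kb away, against 27.4 kb, and 22.7% began within 5 kb of a protein-coding start on the other strand, against 13.5%. For the 10656 autosomal protein-coding genes passing the same rule these last values were 2.18 kb and 22.5%. The read strand set a few members apart. The median share of reads on the opposite strand was 1.08%, but 7 members had over 90% there, all of them overlapping a protein-coding gene on the opposite strand: Gm26762 with Gpi1, Gm26778 with Kctd12, Gm26669 with Zfp36l1, Gm26899 with Zfp106, Gm26541 with Mob3a, Gm26582 with Cdkl2 and Gm26857 with Lyn. Whether the few sense reads of these 7 come from the partner was not tested. Not every partner named here was abundant. In the monocyte libraries Gm26582 held 969 to 1516 opposite-strand reads, where Cdkl2 had 0 to 1.28 CPM. Where several coding genes overlap a member only the first listed was kept, so others at this locus were not looked up. The source of these opposite-strand reads was not tested either.

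Culture with GM-CSF and IL-4 changed the level of 47 of the 128 lincRNAs in at least 1 of 6 comparisons (edgeR quasi-likelihood test, adjusted p of at most 0.05 over 14034 genes), and 81 were called in none. The 47 are 36.7% of the members, and 36.4% of all genes tested were called in at least 1 of the 6. Some of the 47, such as Gm32633, are among the 25 members that the level rule bound to differ between stages. These are kept in the counts below, and no count without them was made. In WT cells 14 rose and 13 fell by day 1, which is 21.1% of the members where 21.5% of all genes were called (11.4% higher, 10.1% lower). By day 2 of the WT culture 15 had risen and 13 had fallen, or 21.9%, where 22.6% of all genes were called (12.7% higher, 9.89% lower). In KO cells 17 rose and 6 fell by day 1, or 18.0%, where 13.8% of all genes were called (7.7% higher, 6.14% lower). By day 2, 22 rose and 8 fell, or 23.4%, where 17.5% of all genes were called (9.95% higher, 7.57% lower). The WT shares lie near those of all genes and the KO shares above them. Among protein-coding genes passing the level rule the shares called at days 1 and 2 were 25.6% and 26.7% in WT and 16.5% and 20.8% in KO, and no difference between the classes was tested. From day 1 to day 2 the counts were 3 rises in WT (2.34%, all genes 8.19%, of which 4.67% higher) and 1 rise in KO (0.781%, all genes 2.05%, of which 1.5% higher). The WT rises include Gm20465, which met the level rule in WT day 2 libraries only and was bound to be higher there. The median log2 change over the members was 0.18 and 0.32 in WT at days 1 and 2, beside 0.06 and 0.09 over all genes, and 0.35 and 0.27 in KO beside 0.11 and 0.08.

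**Figure D1:**
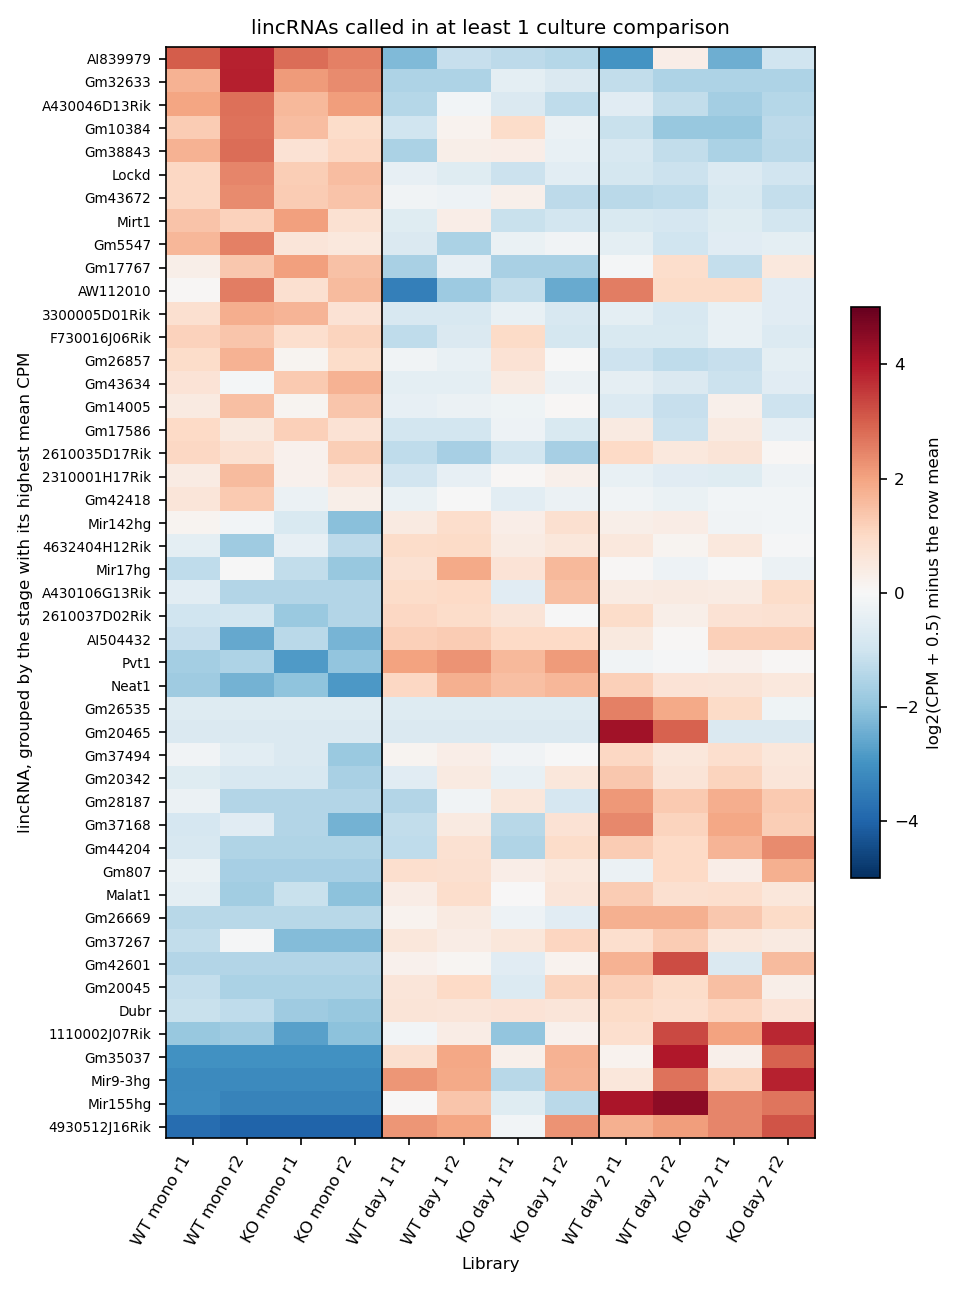
Heat map of the lincRNAs called in at least 1 culture comparison (rows) over the 12 libraries (columns). Colour gives log2(CPM + 0.5) minus the member's mean over the libraries, red high and blue low. The rows were chosen by these calls and grouped by the stage with the highest mean. The 4 monocyte libraries were thus bound to stand apart from the 8 cultured ones. In all 4 comparisons with monocytes 13 members were called.

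Most rises were shared by the genotypes. At day 1, 12 members rose in both, which is 85.7% of the WT rises and 70.6% of the KO rises, and at day 2 it was 13 (86.7% and 59.1%). Over all genes the shared rises were 56.4% of the WT and 83.4% of the KO rises at day 1, and 62.1% and 79.1% at day 2. Of the falls, 4 were shared at day 1 (30.8% of WT, 66.7% of KO) and 7 at day 2 (53.8% and 87.5%). Over all genes these were 51.4% and 85.0% at day 1 and 63.9% and 83.4% at day 2. In all 4 comparisons with monocytes 9 members rose (Neat1, Malat1, Dubr, Mir155hg, Mir9-3hg, 4930512J16Rik, AI504432, Gm35037 and Gm26669) and 4 fell (AI839979, A430046D13Rik, Lockd and Gm32633), which is 7.03% and 3.12% of the members beside 3.71% and 3.43% of all genes tested. Gm37267 was called in both KO comparisons, going from 0 reads in KO monocytes to 2.86 and 4.27 CPM at day 1 and 2.83 and 2.62 at day 2 (edgeR adjusted p = 0.00368 and 0.00329, held without each library), and the interactions for it were not called. The counts moved when a library was left out. Each such fit, here and below, also tested more genes (14973 to 15159 in place of 14034), so the part of the library and that of the gene set were not separated. At WT day 1 the called members numbered 12 when replicate 2 of WT monocytes was left out, 11 leaving out replicate 1 of WT day 1 and 14 leaving out its replicate 2. At WT day 2 they were 43 and 17 leaving out replicate 1 or 2 of WT monocytes, and 14 leaving out either WT day 2 library. At KO day 1 they were 10 and 8 leaving out replicate 1 or 2 of KO monocytes, 8 leaving out replicate 2 of KO day 1, and 17 leaving out the library labelled KO day 1 replicate 1. At KO day 2 they were 15 and 14 leaving out replicate 1 or 2 of KO monocytes, and 18 and 17 leaving out those of KO day 2. Of the 112 single calls, 37 held without each of the 12 libraries, 75 were lost without at least 1, and 0 reversed.

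The poly(A)-captured reads of the RNAs of the nuclear bodies rose in every culture comparison with monocytes. Poly(A) capture selects against transcripts without a tail, and which isoforms of Neat1 and Malat1 were counted was not tested. Neat1, the RNA around which paraspeckles form (chr19:5824708-5845478, - strand), had 44.4 and 28.7 CPM in WT monocytes, 311 and 526 at day 1 and 342 and 246 at day 2. In the KO libraries it had 37.4 and 20.1, then 432 and 474, then 237 and 218 CPM. No cultured library overlapped a monocyte library. The log2 changes were 3.52 ± 0.42 (SE) at WT day 1 and 3.98 ± 0.43 at KO day 1 (edgeR adjusted p = 0.000537 and 0.000424), and 3.01 ± 0.41 and 2.98 ± 0.41 at day 2 (edgeR adjusted p = 0.000699 and 0.000934). These calls held without each library. Malat1, the RNA of nuclear speckles, lies beside Neat1 on chromosome 19 (chr19:5795690-5802672, - strand). It had 411 and 172 CPM in WT monocytes, 749 and 1063 at day 1 and 1385 and 987 at day 2, and 266 and 139, 584 and 866 and 1012 and 852 in KO. Here too the cultured libraries lay above all monocyte libraries. The log2 rise at day 2 was 2.02 ± 0.48 in WT and 2.20 ± 0.48 in KO (edgeR adjusted p = 0.0127 and 0.0105), against 1.64 ± 0.47 and 1.84 ± 0.47 at day 1 (edgeR adjusted p = 0.0321 and 0.0284). The Malat1 calls were lost in some fits without 1 library: the edgeR adjusted p at WT day 1 was 0.0673 or 0.153 leaving out replicate 1 or 2 of WT day 1 and 0.129 leaving out replicate 2 of WT monocytes, and at WT day 2 it was 0.0626 leaving out replicate 1 of WT day 2 and 0.0587 leaving out replicate 2 of WT monocytes. In KO it was 0.155 leaving out replicate 2 of KO day 1 and 0.065 or 0.207 leaving out replicate 1 or 2 of KO monocytes at day 1, and 0.116 leaving out replicate 2 of KO monocytes at day 2.

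Of 16 proteins of speckles and paraspeckles, 2 rose and 0 fell by WT day 1, Tardbp by 1.07 ± 0.28 and Rbm14 by 1.16 ± 0.32 on the log2 scale (edgeR adjusted p = 0.0203 and 0.0282). Over all genes 11.4% were called higher and 10.1% lower by WT day 1. Tardbp also rose by KO day 1 (1.12 ± 0.28, edgeR adjusted p = 0.0231), where 7.7% of all genes were called higher. At day 2 the splicing factor Srsf3 fell in WT (-1.11 ± 0.31, edgeR adjusted p = 0.0276) and 0 of the 16 were called in KO. By then 9.89% of all genes were called lower in WT, and 17.5% were called in either direction in KO. The median log2 change of the list was 0.56 at WT day 1 and -0.05 at WT day 2, beside 0.06 and 0.09 over all genes.

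**Figure D2:**
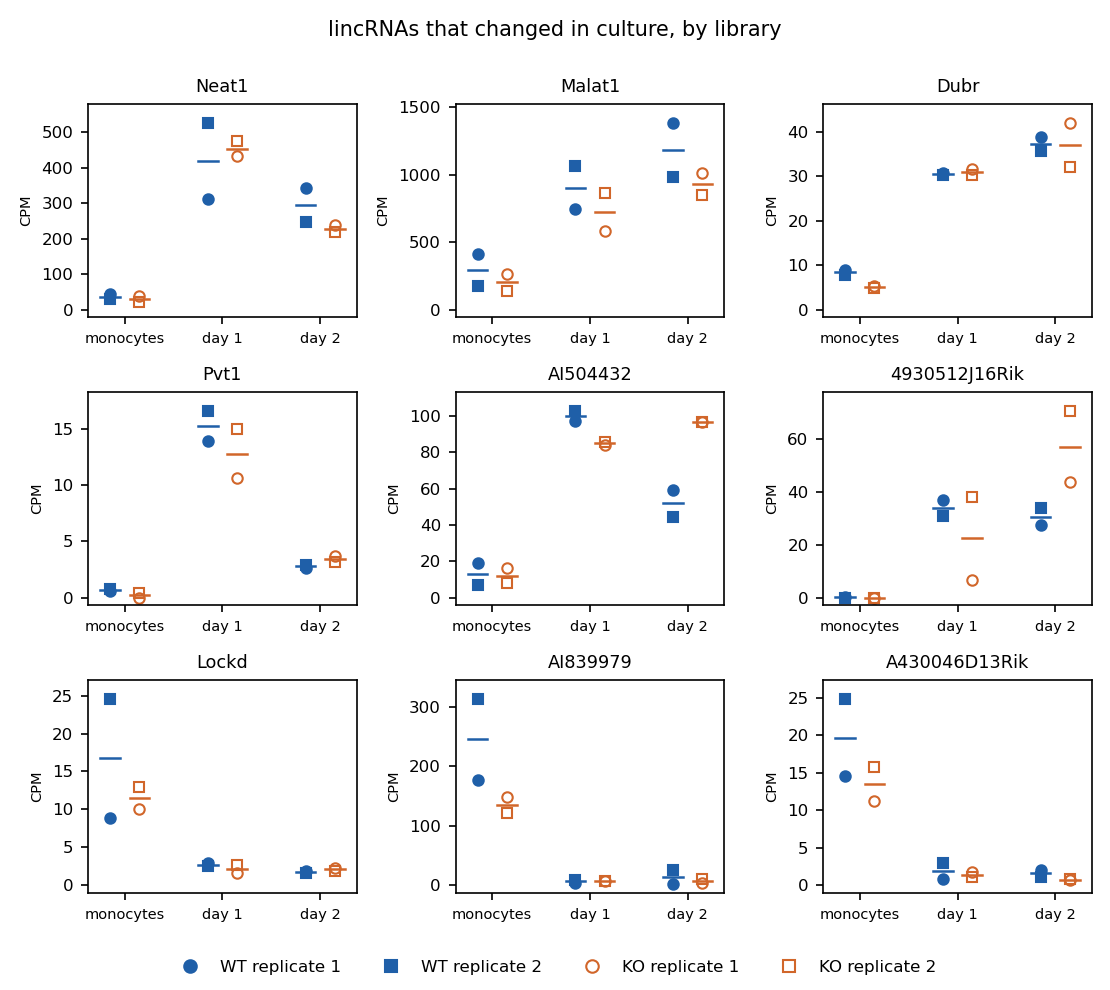
Levels of 9 lincRNAs that changed in culture. Each point is 1 library (CPM, linear axis), filled for WT and open for KO, circles for replicate 1 and squares for replicate 2, and the bars are group means. The upper 6 were low in all monocyte libraries and the lower 3 high in them, and Pvt1 stood highest at day 1.

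Among the 10 miRNA hosts, 5 were called in a culture comparison, where 36.4% of all genes tested were called in at least 1. Mir155hg (chr16:84703167-84715245, + strand) carries miR-155, a miRNA induced in activated myeloid and lymphoid cells. Its level was 0.0766 and 0 CPM in WT monocytes, 4.62 and 12.9 at day 1 and 85.6 and 112 at day 2. The KO libraries held 0 and 0, 2.86 and 1.48 and 26.7 and 31.7 CPM. Within each genotype the 3 stages did not overlap. WT day 1 held 214 against 1 reads in WT monocytes, a ratio in CPM of 198 (95% exact interval 35.1 to 7850). This interval, like the others here, covers counting error only, since PCR copies are not independent molecules. KO monocytes held no read, and KO day 2 was at least 274-fold higher, taking 3 reads over the group as the floor. All 4 comparisons with monocytes were called (edgeR adjusted p = 0.000799, 6.18e-05, 0.00356 and 0.000145 for WT day 1, WT day 2, KO day 1 and KO day 2) and held without each library. It was the only member that rose from day 1 to day 2 in both genotypes, by 3.49 ± 0.53 in WT and 3.77 ± 0.56 in KO on the log2 scale (edgeR adjusted p = 0.00666 and 0.0124), the second p being 0.0581 leaving out replicate 2 of KO day 1.

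Mir17hg (chr14:115042879-115046727, + strand), the host of a polycistronic cluster tied to proliferation, peaked at day 1. It had 1.69 and 4.64 CPM in WT monocytes, 8.51 and 18.8 at day 1 and 4.95 and 3.92 at day 2, and 1.71 and 0.922, 7.88 and 15.6 and 4.67 and 3.76 in KO. The day 1 rise was 2.12 ± 0.64 in WT and 3.15 ± 0.68 in KO (log2, edgeR adjusted p = 0.0398 and 0.0128), and day 2 was not called in either. Leaving out libraries ended both calls, the WT adjusted p reaching 0.233 leaving out replicate 2 of WT day 1 and 0.118 leaving out replicate 1 of WT monocytes, and the KO value 0.0598 or 0.114 leaving out replicate 1 or 2 of KO monocytes and 0.0853 leaving out replicate 2 of KO day 1. The WT call also ended without KO monocytes replicate 1 (0.0509) and without each of the 4 day 2 libraries (0.0532 to 0.0594).

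Mir9-3hg (chr7:79500026-79534403, + strand), the host of one of the miR-9 genes, had 0 reads in all 4 monocyte libraries. It had 20.4 and 16.2 CPM at WT day 1, 6.1 and 28.6 at WT day 2, 1.21 and 14.1 at KO day 1 and 9.34 and 64.9 at KO day 2. Against the floor these were at least 137-fold, 130-fold, 71.5-fold and 348-fold higher (edgeR adjusted p = 0.0151, 0.0146, 0.0322 and 0.0095). At day 2 replicate 2 was far above replicate 1 in both genotypes. Each call was lost in some fits without 1 library: the adjusted p at WT day 1 was 0.0523 leaving out replicate 1 of WT day 1 and 0.0504 or 0.0526 leaving out replicate 1 or 2 of WT monocytes, at WT day 2 0.0563 leaving out replicate 2 of WT monocytes, at KO day 1 0.191 leaving out replicate 2 of KO day 1, 0.141 or 0.152 leaving out replicate 1 or 2 of KO monocytes and 0.0553 or 0.055 leaving out replicate 1 or 2 of WT day 1, and at KO day 2 0.059 or 0.0663 leaving out replicate 1 or 2 of KO monocytes.

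Mir142hg (chr11:87755577-87757270, + strand) carries miR-142, made across blood cells, and was already present in monocytes. It had 21 and 17.5 CPM in WT monocytes, 26.3 and 35.7 at day 1 and 23.9 and 25 at day 2, and 11 and 4.18, 24.3 and 34.1 and 17.2 and 17.7 in KO. Its 1 call was the KO rise by day 1 (1.94 ± 0.42, edgeR adjusted p = 0.0131), whose adjusted p was 0.0846 leaving out replicate 2 of KO day 1 and 0.0834 leaving out replicate 2 of KO monocytes. The WT change was 0.69 ± 0.41 (edgeR adjusted p = 0.253). A430106G13Rik (chr1:137966531-137969918, + strand), which spans the miR-181b-1 gene, had 0 reads in KO monocytes, 0.433 and 3.45 CPM at KO day 1 and 1.33 and 2.13 at KO day 2 (edgeR adjusted p = 0.0359 and 0.0332). In WT it held 6 and 0 reads in monocytes, 26 and 28 at day 1 and 12 and 11 at day 2. Both of its KO calls ended without most single libraries, up to 0.213 leaving out replicate 2 of KO day 1 and 0.15 leaving out replicate 2 of KO monocytes. The other 5 hosts (Gm37233, Snhg20, 2900076A07Rik, 6720427I07Rik with 3 let-7 genes, and 4833445I07Rik with the genes of miR-191 and miR-425) were called in no culture comparison.

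**Figure D3:**
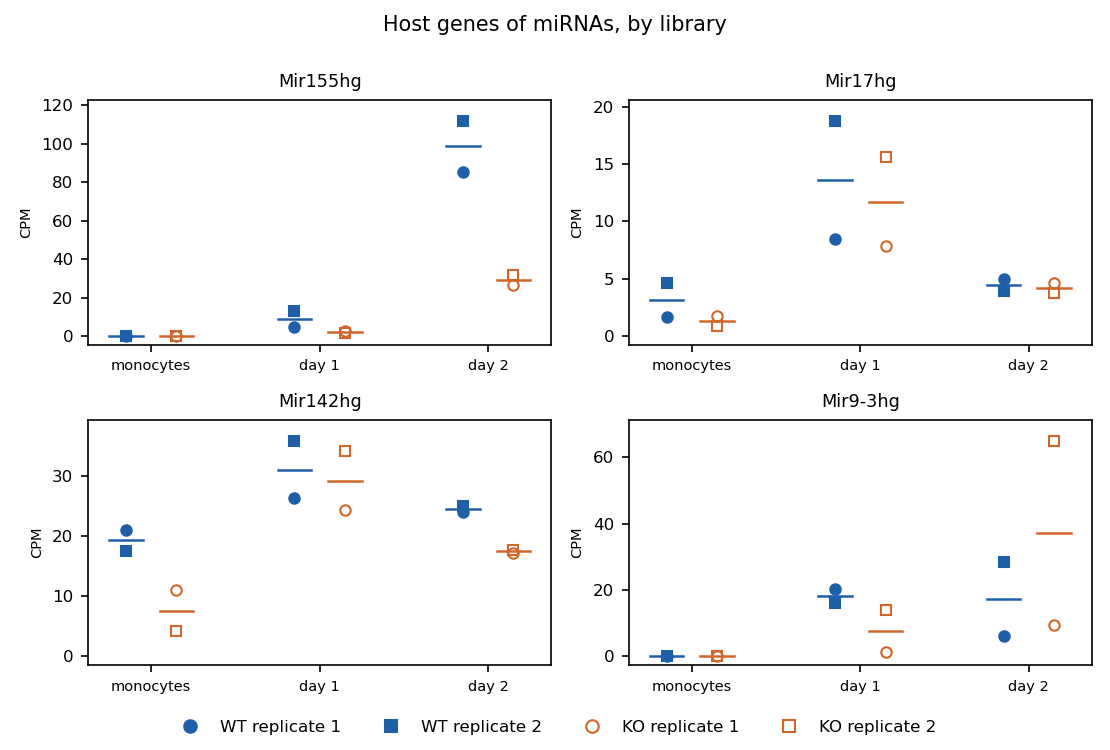
Levels of 4 miRNA host genes. Each point is 1 library (CPM, linear axis), filled for WT and open for KO, circles for replicate 1 and squares for replicate 2, bars are group means. Mir155hg climbed at each stage and was lower in both KO than in both WT libraries at day 2 (26.7 and 31.7 against 85.6 and 112 CPM), and Mir17hg stood highest at day 1.

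None of the 4 snoRNA hosts was called. Snhg6 ranged from 8.58 to 28.7 CPM, Snhg12 from 5.07 to 16.5, Epb41l4aos from 3.19 to 6.90 and 2700038G22Rik from 0.638 to 5.25 over the 12 libraries. The WT day 1 replicates of Snhg6 alone were at 13.5 and 27.5 CPM. Of 14 genes of small RNA processing, 6 rose by WT day 1, where 11.4% of all genes were called higher, and 0 fell: Nop58 by 2.66 ± 0.41, Dkc1 by 2.57 ± 0.42, Fbl by 1.95 ± 0.33, Nop56 by 1.77 ± 0.31, Nhp2 by 1.48 ± 0.40 and Snu13 by 1.17 ± 0.34 on the log2 scale (edgeR adjusted p from 0.00193 for Nop58 to 0.0336 for Snu13). All 6 are core proteins of snoRNA particles. By KO day 1, 5 of the 14 rose (7.7% of all genes were called higher), and Snu13 was not called there (0.92 ± 0.34, edgeR adjusted p = 0.0967). At day 2 none of the 6 was called in either genotype. The counts of the list were then 2 rises in WT, the Argonaute genes Ago3 (2.68 ± 0.54) and Ago1 (2.02 ± 0.38), with edgeR adjusted p of 0.0057 and 0.00393, and 1 in KO, Ago3 (1.89 ± 0.53, edgeR adjusted p = 0.0331). By day 2, 12.7% of all genes were called higher in WT and 9.95% in KO. The median of the list at WT day 1 was 1.02, beside 0.06 over all genes.

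Of 11 genes of RNA decay and surveillance, 2 rose (Smg5 and Dis3) and 1 fell (Zcchc8) by WT day 1, and 1 rose (Dis3) by KO day 1. Over all genes 11.4% were called higher and 10.1% lower by WT day 1, and 7.7% higher by KO day 1. By WT day 2, Zfc3h1 rose by 1.72 ± 0.47 and Zcchc8 fell by 1.13 ± 0.23 on the log2 scale (edgeR adjusted p = 0.0239 and 0.00626). Both are cofactors that lead nuclear transcripts to the exosome. By KO day 2 the exosome nuclease Exosc10 fell (-0.81 ± 0.25, edgeR adjusted p = 0.0475). Of all genes, 12.7% were called higher and 9.89% lower by WT day 2, and 7.57% lower by KO day 2.

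Of 16 genes listed as myeloid or inflammatory noncoding RNAs, 4 were members, Mir155hg among them. Pvt1 (chr15:62037986-62378096, + strand), the long gene downstream of Myc, rose most at day 1. It had 0.613 and 0.738 CPM in WT monocytes, 14 and 16.6 at day 1 and 2.65 and 2.91 at day 2, and 0 and 0.425, 10.6 and 15 and 3.67 and 3.19 in KO. The log2 change was 4.49 ± 0.79 at WT day 1 and 5.84 ± 0.87 at KO day 1 (edgeR adjusted p = 0.00361 and 0.00232), and 2.03 ± 0.77 and 3.94 ± 0.85 at day 2 (edgeR adjusted p = 0.0798 and 0.00999). The stages did not overlap in either genotype. Morrbid, annotated as Gm14005 (chr2:128178319-128502765, - strand), restrains the proapoptotic gene Bcl2l11 in short-lived myeloid cells. It had 15.5 and 33.4 CPM in WT monocytes, 8.51 and 9.22 at day 1 and 6.79 and 4.8 at day 2, and 12.4 and 30.1, 9.61 and 12 and 13.7 and 5.32 in KO. Its call was the fall by WT day 2 (-2.07 ± 0.58, edgeR adjusted p = 0.0277), whose adjusted p was 0.0806 or 0.161 leaving out replicate 1 or 2 of WT day 2 and 0.138 leaving out replicate 2 of WT monocytes. Bcl2l11, 15.8 kb away, had 48.1 and 14 CPM in WT monocytes and 217 and 43.1 at WT day 2 (2.06 ± 0.83, edgeR adjusted p = 0.0967). In KO it had 50.9 and 31.6 CPM in monocytes and 356 and 97.9 at day 2 (2.46 ± 0.84, edgeR adjusted p = 0.0668). At day 2 Bcl2l11 and Gm14005 were thus both higher in KO than in WT within each experiment. Mirt1 (chr19:53443230-53464796, - strand), first described in injured heart, had 4.83 and 3.9 CPM in WT monocytes and 0.69 and 0.632 at WT day 2, and 7.79 and 2.91 in KO monocytes, 0.433 and 0.547 at KO day 1 and 0.834 and 0.573 at KO day 2. The log2 changes were -2.70 ± 0.85, -3.41 ± 0.85 and -2.93 ± 0.85 in these 3 comparisons ( edgeR adjusted p = 0.0423, 0.0246 and 0.0375), and each call ended without 1 or more libraries, the highest values being 0.222 leaving out replicate 2 of WT day 2, 0.157 leaving out replicate 1 of KO monocytes and 0.251 leaving out replicate 2 of KO day 2.

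Among RNAs of wide and conserved expression, Dubr (chr16:50719294-50732773, - strand) changed with the least spread. It had 8.97 and 7.8 CPM in WT monocytes, 30.7 and 30.2 at day 1 and 38.9 and 35.7 at day 2, and 5.43 and 4.89, 31.7 and 30.3 and 42 and 32.1 in KO. The rises were 1.86 ± 0.26 and 2.15 ± 0.27 in WT and 2.58 ± 0.27 and 2.84 ± 0.28 in KO (log2, days 1 and 2 in turn, edgeR adjusted p = 0.00119, 0.000405, 0.000378 and 0.000123) and held without each library. The RNA annotated as 1700020I14Rik, known as Cyrano, ranged from 81.3 to 167 CPM and was not called in any comparison. That holds also for 2900097C17Rik, known as Norad, which binds Pumilio proteins and ranged from 6.01 to 48.0 CPM. Trp53cor1, the p53-induced lincRNA-p21, was not called either, at 0.996 and 0 CPM in WT monocytes and 4.03 and 5.69 at WT day 2. None of the 10 imprinted noncoding RNAs looked for was a member.

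The remaining large rises were in RNAs known by clone names. 4930512J16Rik (chr6:89269511-89285725, - strand, 4 exons), whose promoter is shown above, had 1 read in the 4 monocyte libraries together. It reached 36.7 and 30.7 CPM at WT day 1, 27.3 and 33.9 at WT day 2, 6.75 and 37.8 at KO day 1 and 43.5 and 70.4 at KO day 2. The ratio of WT day 1 to WT monocytes was 758 (95% exact interval 136 to 30000), and KO day 2 was at least 534-fold above KO monocytes (edgeR adjusted p = 0.000839 and 0.000375). All 4 comparisons with monocytes held without each library. AI504432 (chr3:107039504-107054347, + strand) had 18.8 and 6.75 CPM in WT monocytes, 97.3 and 103 at day 1 and 59.2 and 44.5 at day 2, and 16.1 and 8.01, 84.3 and 85.8 and 96.5 and 96.9 in KO. Its rise was 2.96 ± 0.47 at WT day 1 and 2.82 ± 0.47 at KO day 1 (log2, edgeR adjusted p = 0.0021 and 0.00377), and 2.01 ± 0.46 and 3.0 ± 0.47 at day 2 (edgeR adjusted p = 0.0105 and 0.00195), the WT day 2 p being 0.0527 leaving out replicate 1 of WT day 2. WT levels at day 2 lay below those at day 1, and KO levels did not. Gm35037 (chr7:3451357-3475020, + strand) was at 0 reads in monocytes and at 4.14 and 65.8 CPM at WT day 2 and 4.34 and 31 at KO day 2, with replicate 2 the higher in both (at least 262-fold and 166-fold higher, edgeR adjusted p = 0.0112 and 0.0175). The WT day 2 call held without each library, and the KO day 2 adjusted p was 0.0683 leaving out replicate 2 of KO day 2 and 0.0907 or 0.103 leaving out replicate 1 or 2 of KO monocytes. 1110002J07Rik (chr10:66912489-66920258, - strand) went from 4.75 and 5.17 to 34.5 and 189 CPM in WT and from 2.5 and 4.18 to 78.4 and 267 in KO by day 2 (4.49 ± 0.97 and 5.69 ± 1.03, edgeR adjusted p = 0.00841 and 0.00407), again with replicate 2 far higher, and these calls ended, with adjusted p of 0.0567 leaving out replicate 2 of WT day 2 and of 0.0506 leaving out replicate 1 of KO monocytes.

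The deepest falls were also in clone-named genes. AI839979 (chr5:31569595-31571397, - strand) had 177 and 314 CPM in WT monocytes, 4.13 and 9.3 at day 1 and 2.19 and 26.7 at day 2, and 148 and 122, 8.14 and 7.55 and 3.5 and 10.4 in KO. Every cultured library lay below every monocyte library. The log2 changes were -5.19 ± 0.97, -4.09 ± 0.92, -4.11 ± 0.92 and -4.24 ± 0.94 (WT day 1, WT day 2, KO day 1, KO day 2, edgeR adjusted p = 0.00466, 0.0103, 0.0159 and 0.0112). The adjusted p at WT day 1 was 0.0552 leaving out replicate 1 of WT day 1, and at KO day 2 it was 0.08 leaving out replicate 1 of KO day 2. At KO day 1 it was 0.0571 leaving out the library labelled KO day 1 replicate 1, 0.117 leaving out replicate 2 of KO day 1 and 0.066 or 0.0572 leaving out replicate 1 or 2 of KO monocytes. Gm32633 (chr7:64001885-64020959, + strand) had 4.37 and 21.1 CPM in the WT monocyte libraries and 5.86 and 6.95 in those of KO. No read was left at WT day 1 (at least 103-fold lower) or at KO day 2 (at least 38.9-fold lower, edgeR adjusted p = 0.00293 and 0.0062), and both calls held without each library. WT monocytes replicate 2 was the highest library for both genes, and it also held the most neutrophil marker reads, whose part in these falls was not tested. Without it the WT day 1 calls of AI839979 and Gm32633 remained. A430046D13Rik (chr10:128499364-128504242, + strand) had 14.6 and 24.9 CPM in WT monocytes, 0.908 and 2.94 at day 1 and 2.07 and 1.14 at day 2 (-3.35 ± 0.64 and -3.60 ± 0.66, edgeR adjusted p = 0.00534 and 0.00355). Its KO values were 11.3 and 15.7, 1.82 and 1.09 and 0.667 and 0.9 CPM, and the adjusted p of the KO day 1 fall was 0.0844 leaving out replicate 2 of KO day 1 and 0.0612 leaving out replicate 2 of KO monocytes. Lockd (chr6:134929092-134956798, + strand), an RNA made downstream of the cell cycle inhibitor gene Cdkn1b, had 8.89 and 24.6 CPM in WT monocytes, 2.89 and 2.53 at day 1 and 1.96 and 1.64 at day 2, and 10.1 and 13, 1.65 and 2.63 and 2.33 and 1.88 in KO. The log2 change by day 2 was -3.21 ± 0.59 in WT and -2.46 ± 0.57 in KO ( edgeR adjusted p = 0.00355 and 0.0145). The WT day 2 call held without each library, and the KO day 2 adjusted p was 0.0736 or 0.119 leaving out replicate 1 or 2 of KO day 2 and 0.0861 leaving out replicate 2 of KO monocytes.

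Between days 1 and 2 of the WT culture 2 members were called higher beside Mir155hg. AW112010 (chr19:11047612-11055808, - strand), an RNA induced by inflammatory stimuli in macrophages, fell and returned: it had 11.4 and 66.3 CPM in WT monocytes, 0.578 and 2.77 at day 1 and 66.6 and 22 at day 2. In KO it had 19.6 and 34.2, 4.42 and 1.48 and 22 and 7.28 CPM. The WT fall was -4.52 ± 1.08 and the later rise 4.71 ± 1.09 (log2, edgeR adjusted p = 0.0147 and 0.0273), and both calls were lost in some fits without 1 library. The adjusted p of the rise was 0.166 or 0.101 leaving out replicate 1 or 2 of WT day 1 and 0.119 leaving out replicate 1 of WT day 2. That of the fall was 0.105 leaving out replicate 1 of WT day 1 and 0.0743 leaving out replicate 2 of WT monocytes. Gm20465 (chr5:33293614-33311150, - strand, 7 exons) had reads in the 2 WT day 2 libraries alone, 14.5 and 5.82 CPM, and 0 in the other 10. WT day 2 was at least 82.5-fold above WT day 1 and at least 76.3-fold above WT monocytes. Since it became a member through the WT day 2 libraries alone, these folds are a description.

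Where a called lincRNA had a called neighbour, both moved the same way. The nearest protein-coding gene was called too for 8 of 24 called members with a tested neighbour at WT day 1, 9 of 26 at WT day 2, 7 of 21 at KO day 1 and 7 of 28 at KO day 2, and 0 of these pairs moved in opposite directions. These are 33.3%, 34.6%, 33.3% and 25% of the called members, beside 18.8%, 20.5%, 13% and 17.9% of called protein-coding genes whose nearest coding gene was called in the same direction (another 177, 173, 70 and 108 were called in the opposite direction). Some pairs share a neighbour or overlap it, and the difference between these shares was not tested. The called members include some that the level rule bound to differ between stages, such as Gm32633 and Gm42601. Gm5547, where called, was bound to be lower than in WT monocytes, the only group in which it met the rule. Called members also include Gm26669, with most reads on the strand of its partner, and this limit holds for Gm26857 where called. The shares were not computed without such members, so they and the shared directions are a description. One such pair was AI504432 and Kcna3, a voltage-gated potassium channel gene 1.43 kb upstream on the same strand. Kcna3 had 7.82 and 8.44 CPM in WT monocytes, 46.4 and 55.2 at day 1 and 22.7 and 24.2 at day 2, and 7.36 and 4.33, 42.6 and 52.1 and 41.7 and 55.2 in KO. Plxna1, a semaphorin receptor gene 30.6 kb upstream of 4930512J16Rik, went from 12.1 and 5.06 CPM in WT monocytes to 765 and 430.1 at day 1 and 369.9 and 352 at day 2, and in KO from 9.86 and 10.1 to 558 and 436 and 622 and 687. The same gene is the neighbour of Gm44204 (57.2 kb), which was at 4 and 6.79 CPM at KO day 2 and 0 in KO monocytes. Myc, 47.6 kb from Pvt1, had 10.3 and 3.59 CPM in WT monocytes, 159 and 104 at day 1 and 14.3 and 18.3 at day 2, and 8.71 and 5.96, 94.9 and 118 and 15 and 26.3 in KO, so both genes peaked at day 1. Near Gm35037 lies Tarm1 (11.5 kb, convergent), a myeloid activating receptor gene at 15.1 and 16.8 CPM in WT monocytes and 322 and 309 at WT day 1. Cdkn1b fell with Lockd at day 1 (-2.22 ± 0.33 in WT, edgeR adjusted p = 0.00155), from 100.4 and 83.3 to 17.9 and 21.5 CPM, and at day 2 stood at 56.7 and 45.6 (-0.84 ± 0.32, edgeR adjusted p = 0.0809). Gm26669, in which over 99% of reads were on the strand of the overlapping Zfp36l1, rose with that gene, which went from 3.75 and 1.05 to 671 and 577 CPM in WT by day 2.

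**Figure D4:**
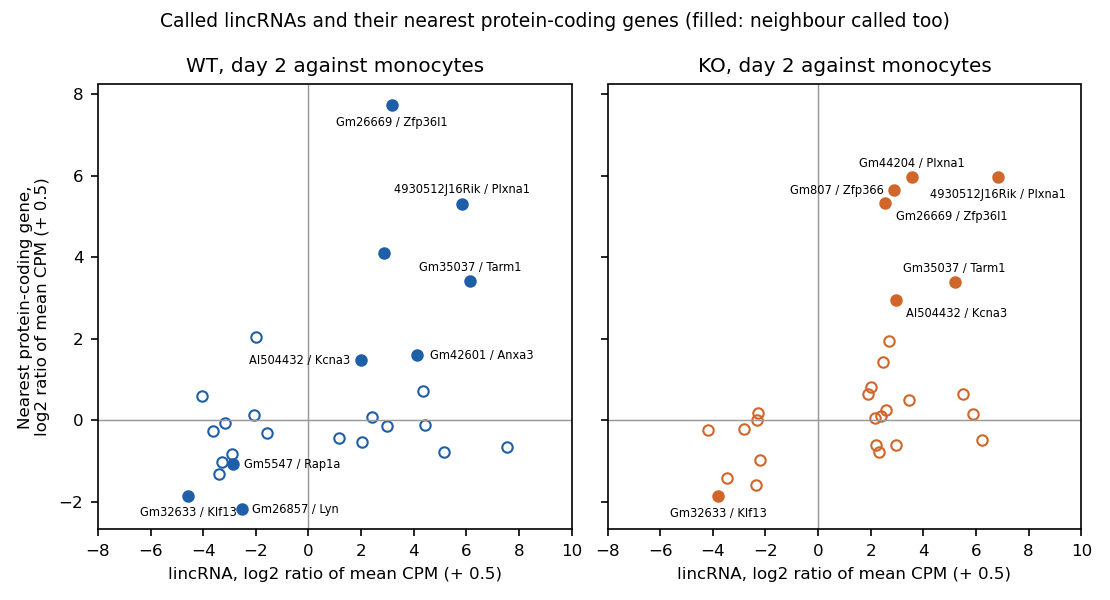
Called lincRNAs against their nearest protein-coding gene at day 2, WT left and KO right. Axes give log2 of the ratio of mean CPM (plus 0.5), day 2 over monocytes. Filled points mark pairs in which the neighbour was called too (9 of 26 in WT, 7 of 28 in KO), named where the gap is within 100 kb, and each lies where both axes have the same sign.

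Loss of Nr4a3 changed no lincRNA past the threshold at any stage in edgeR with all libraries (0 of 128 in each comparison, beside 0.0% of all genes in monocytes, 0.0% at day 1 and 0.0998% at day 2). At an unadjusted p under 0.05 there were 6, 4 and 2 members (4.69%, 3.12% and 1.56%) in monocytes, at day 1 and at day 2, beside 557, 252 and 444 of all genes (3.97%, 1.8% and 3.16%), and DESeq2 called 0 members. In monocytes the smallest p were for Gm37267, Mir142hg and Gm42418. Gm37267 had 0.46 and 1.69 CPM in WT and 0 reads in KO (edgeR adjusted p = 0.998). Mir142hg had 21 and 17.5 CPM in WT and 11 and 4.18 in KO (-1.34 ± 0.41, edgeR adjusted p = 0.998). Gm42418, the rRNA-like gene, had 11634 and 18978 CPM in WT and 6258 and 9284 in KO (-0.98 ± 0.35, edgeR adjusted p = 0.998). The median log2 difference of KO from WT monocytes over the members was -0.31, with 42 of 128 above 0, beside 0.00 over all genes, but it was 0.00 without WT monocytes replicate 1 (0.08 over all genes), -0.18 without WT monocytes replicate 2 and -0.51 without KO monocytes replicate 1. Without WT monocytes replicate 1, 4 members were called: Gm37267 lower in KO, and AI480526, Gm26532 and Gm28875 higher.

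At day 1 the smallest p were for Mir155hg, Gm32633 and Gm7160. Mir155hg had 4.62 and 12.9 CPM in WT and 2.86 and 1.48 in KO (-2.04 ± 0.53 on the log2 scale, edgeR adjusted p = 1.0). Gm32633 had 0 reads in WT and 0.519 and 0.383 CPM in KO (edgeR adjusted p = 1.0). Gm7160 had 0.165 and 0.49 CPM in WT and 1.82 and 3.39 in KO (2.96 ± 1.14, edgeR adjusted p = 1.0). The median log2 difference over the members was 0.01, with 65 of 128 above 0. Without the library labelled KO day 1 replicate 1, too, 0 members were called.

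At day 2, where Nr4a3 was most abundant in WT, Gm20465, Mir155hg and AI504432 had the smallest p. Gm20465 had 14.5 and 5.82 CPM in WT, 172 reads, and 0 reads in KO, a difference that its choice through WT day 2 fixed and that is no result. Mir155hg had 85.6 and 112 CPM in WT and 26.7 and 31.7 in KO (-1.75 ± 0.49, edgeR adjusted p = 0.625). WT exceeded KO in both experiments, 3.21 times in replicate 1 and 3.53 times in replicate 2. AI504432 stood at 59.2 and 44.5 CPM in WT and 96.5 and 96.9 in KO (0.90 ± 0.44, edgeR adjusted p = 1.0). Cell type markers differed between the genotypes at day 2 as well, in the same direction in both experiments. Summed monocyte markers were 2367 and 1453 CPM in KO against 1677 and 660.4 in WT, macrophage markers (4 genes) 374 and 234 against 243 and 125, and neutrophil markers 632 and 1307 against 247 and 937. Dendritic cell markers were 24759 and 26252 CPM in KO against 28936 and 32031 in WT. None of these markers was at 0 reads in a day 2 library, and their part in the day 2 differences given here and below was not tested.

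Same-numbered day 2 libraries of both genotypes deviated together (r = 0.657 across genes), and a fit of those 4 libraries alone with the replicate number as a block, added after the data were seen, called 10 of 103 members tested (9.71%, beside 12.7% of 12233 genes, 6.25% higher and 6.49% lower in KO). This fit has 1 residual degree of freedom, and a block by experiment in the fit of all 12 libraries called 0 members (beside 0.249% of genes). The share lies below that of all genes. Of the 10, Gm20465 and Gm26535 were bound by the level rule to be lower in KO than in WT, which leaves 8, of which 4 were lower in KO. They were Mir155hg (log2 difference -1.76 ± 0.12, edgeR adjusted p = 0.00012), AW112010 (-1.59 ± 0.14, 66.6 and 22 CPM in WT, 22 and 7.28 in KO), 4833407H14Rik (-2.19 ± 0.28, 14.3 and 6.58 against 3.5 and 1.23 CPM) and Gm42601 (-2.10 ± 0.36, 4.03 and 12.5 against 0.334 and 3.6 CPM), with adjusted p of 0.000495, 0.0023 and 0.00895 for the last 3. Gm26535 had 3.91 and 2.4 CPM in WT and 1 and 0.164 in KO, given as a description. Outside WT day 2, Gm42601 met the level only in KO day 2 replicate 2, which alone would not have made it a member. Its difference was thus partly bound by the level rule and is a description too. AW112010 overlapped between genotypes but was about as much lower in KO in both experiments, WT over KO being 3.03 and 3.02 times. The other 4 were higher in KO: AI504432 (0.91 ± 0.13), 4930512J16Rik (0.88 ± 0.13, 27.3 and 33.9 CPM in WT and 43.5 and 70.4 in KO), Mir9-3hg (0.99 ± 0.17) and 1110002J07Rik (0.81 ± 0.18), with adjusted p of 0.00327, 0.00483, 0.00881 and 0.0438. Mir9-3hg and 1110002J07Rik overlapped between genotypes, replicate 2 being the higher in each. In the unblocked fit their differences turned negative on leaving out 1 library, to -0.91 for Mir9-3hg (without KO day 2 replicate 2), and to -0.53 (the same library) and -0.12 (without WT day 2 replicate 1) for 1110002J07Rik.

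**Figure D5:**
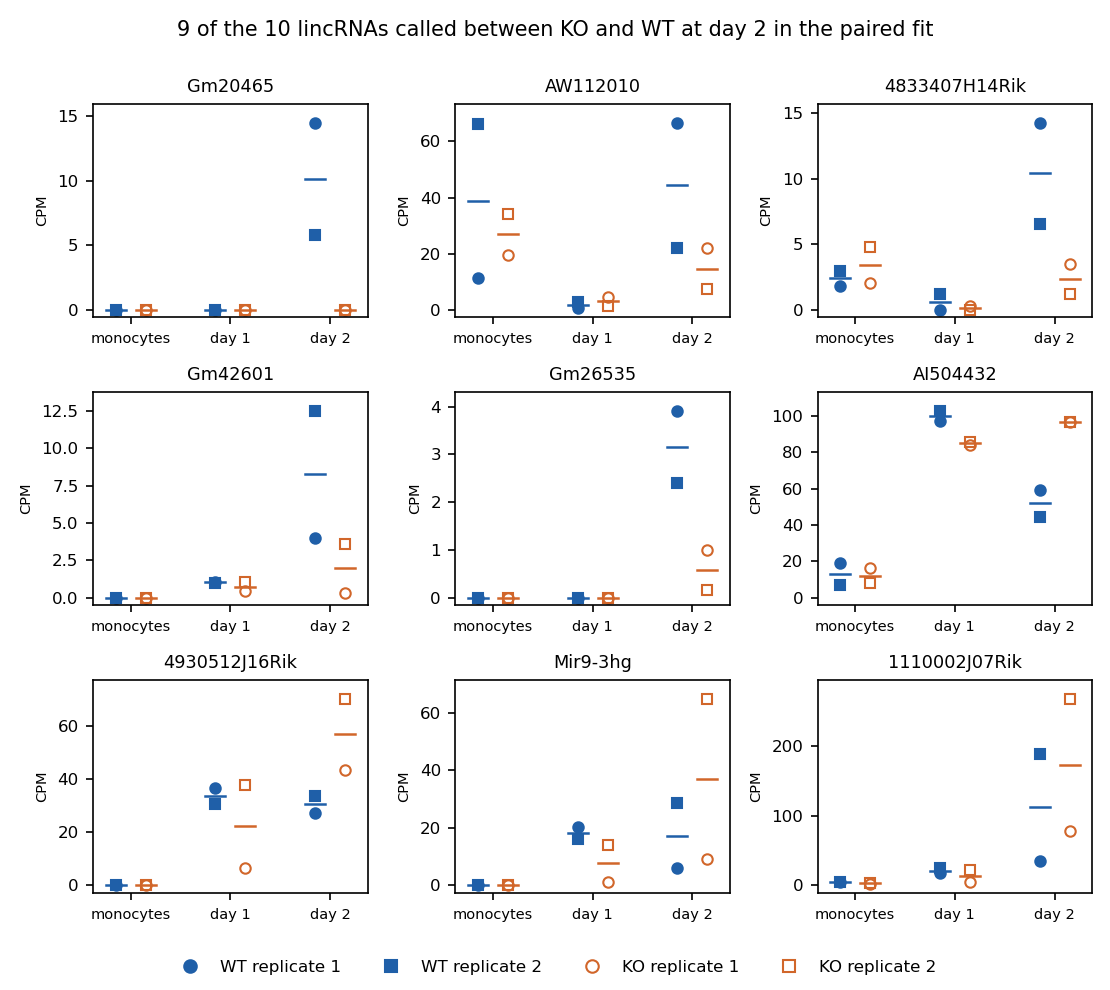
Levels of 9 of the 10 lincRNAs called between genotypes at day 2 in the fit of the 4 day 2 libraries with the replicate number as a block (Mir155hg, the other one, is in the plot of miRNA host genes). Points are libraries (CPM, linear axis), filled for WT and open for KO, circles for replicate 1 and squares for replicate 2, bars are group means. Gm20465 has reads in the 2 WT day 2 libraries only, and it and Gm26535 became members through those libraries. Without them Gm42601 would not have met the level rule either.

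Of the 9 nearest protein-coding genes of these 10 members that were tested in the same fit, 5 were called, each in the direction of its lincRNA. In this fit 13.9% of 10408 protein-coding genes were called, in either direction. The 9 include Marcks and Ctbp1, beside Gm26535 and Gm20465. The level rule bound these lincRNAs to be lower in KO, so the shared direction of Gm26535 and Marcks is a description. Gm42601 would not have been a member without the WT day 2 libraries, so its shared direction with Anxa3 is a description as well. In the block fit of all 12 libraries 1 of the 5 was called, Anxa3 (-2.58 ± 0.29, edgeR adjusted p = 0.0061), and the other 4 had adjusted p of 0.166 to 0.536. Kcna3, beside AI504432, was at 22.7 and 24.2 CPM in WT and 41.7 and 55.2 in KO at day 2 (1.04 ± 0.14, edgeR adjusted p = 0.00243). Plxna1, beside 4930512J16Rik, was at 369.9 and 352 CPM in WT and 622 and 687 in KO (0.86 ± 0.11, edgeR adjusted p = 0.00217). Anxa3, an annexin gene 33.4 kb from Gm42601, was at 269 and 278 CPM in WT and 41.2 and 50.6 in KO (-2.58 ± 0.12, edgeR adjusted p = 1.53e-05). Dusp5, a MAP kinase phosphatase gene 66.4 kb from 4833407H14Rik (-1.59 ± 0.11, edgeR adjusted p = 0.00017), and Marcks, 199 kb from Gm26535 (-0.94 ± 0.12, edgeR adjusted p = 0.00289), were lower in KO. Ctbp1, the neighbour of Gm20465, was at 195 and 179 CPM in WT and 174 and 174 in KO (-0.10 ± 0.10, edgeR adjusted p = 0.594).

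Whether culture changed the lincRNAs differently in KO was tested by the interaction of genotype and culture. edgeR called 0 members at day 1 (0.0% of all genes) and 0 at day 2 (0.0285%), with 5 and 3 members (3.91% and 2.34%) at an unadjusted p under 0.05, beside 2.85% and 3.41% of all genes, and DESeq2 called 0 members. The day 2 interaction on the log2 scale was -0.02 ± 0.54 for Neat1, 0.18 ± 0.65 for Malat1 and 0.99 ± 0.62 for AI504432, each with an edgeR adjusted p of 1.0. No value is given for Mir155hg, with 1 read in the 4 monocyte libraries, or for Mir9-3hg and Gm20465, with 0. Without WT monocytes replicate 1 the day 2 interaction was called for 2 members, AI480526 and Gm28875.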

How the data were processed

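RNA of 12 samples in 6 groups was sequenced on a HiSeq2000 from poly(A)-selected, stranded libraries, per the labels' protocols. The authors deposited whole-number read counts per Ensembl gene, 1 file per library. Reads were trimmed with Trimmomatic 0.35 and aligned with STAR 2.5.1b to GRCm38, per the submitters' processing notes, and the annotation release used is not given in these sources. Column 4 of the deposited counts was used, where the reads of coding genes lie, and column 3 holds the opposite strand. Lines that name no gene (unmapped, multimapping, outside genes, ambiguous) took 16.2 to 24.4% of reads and entered neither the library sizes nor any test. Multimapping reads, 5.29 to 8.94%, are thus not counted, which lowers genes with near-identical copies.

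Of 47643 gene identifiers, 39106 matched GENCODE M21 with version, 8118 without it and 419 not at all. All 12 libraries were fitted together, 1 mean per group, in R 4.3.3 with edgeR 4.0.16 (filterByExpr, TMM factors 0.8877 to 1.0766, robust quasi-likelihood, Benjamini-Hochberg over 14034 genes, 6 residual degrees of freedom, threshold 0.05). The step was tested on simulated data. Levels are CPM after TMM. DESeq2 1.42.0 was an alternative, beside other filters, scalings, samples and strand settings. Python used pandas 2.3.3, numpy 2.4.6, scipy 1.17.1 and matplotlib 3.10.9. Same-numbered samples share the dated experiment named in their files. Their deviations from the group means correlated across genes by 0.236 (WT and KO monocytes), 0.194 (day 1) and 0.657 (day 2).

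Members named are the 5 largest rises and falls per culture comparison among called members with at least 5 CPM in the higher group and no overlap, the 10 highest per exonic kb, those in role lists, those called between genotypes or else the 3 smallest p, and the 3 nearest either side of the level limit. Not all are printed. Gm37267 and Gm26669 in the culture comparisons, and the members called between genotypes only when a library was left out, were named after their values were seen. The members and all lists were chosen with earlier results of these data known.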

Additional observations from a re-analysis of the deposited data

Results flagged for a closer look

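Between day 1 and day 2 of culture, 4 lincRNAs differed without overlap in one direction among WT libraries and in the other among KO libraries. They are 3.12% of the 128, and 1.65% of all 14034 genes tested (231) showed such a pattern. The WT log2 change from day 1 to day 2 was -0.95 for AI504432, -1.10 for Mirt1, -0.38 for 2610037D02Rik and 0.67 for Gm37267. AI504432 went from 97.3 and 103 to 59.2 and 44.5 CPM in WT and from 84.3 and 85.8 to 96.5 and 96.9 in KO. Mirt1 went from 0.826 and 2.04 to 0.69 and 0.632 CPM in WT and from 0.433 and 0.547 to 0.834 and 0.573 in KO. These KO values rest on few reads, 5 and 10 at KO day 1 and 5 and 7 at KO day 2. The KO day 1 values include the library labelled KO day 1 replicate 1. Day 2 came from other experiments than day 1, so no sample was followed from day 1 to day 2. For these 4 the difference between the genotypes in this change was not tested.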

How the results depend on the processing

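Of the 112 calls of single lincRNAs in culture, 109 stayed past the threshold in DESeq2, 112 with RLE scaling, 107 with no low-count filter, 101 of 110 with counts of both strands and 78 of 108 when each fit held its compared groups alone, and 0 reversed in any of these. When replicate 2 of WT monocytes was left out together with the library labelled KO day 1 replicate 1, 81 stayed. Fitting the compared groups alone gave 14 called members at WT day 1, 17 at WT day 2, 8 from WT day 1 to day 2 and 0 from KO day 1 to day 2. DESeq2 gave 36 at KO day 1, 8 from WT day 1 to day 2 and 5 from KO day 1 to day 2. With no low-count filter there were 37 at KO day 1, 14 and 8 from day 1 to day 2 in WT and KO, and 1, 1 and 3 between genotypes in monocytes, at day 1 and at day 2. Without the 2 doubted libraries 11 were called from WT day 1 to day 2. Members at 5 CPM in at least 2 libraries gave 15 at KO day 1 and 18 at KO day 2. The cause of these shifts was not tested.

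With the replicate block on the compared groups, a fit added after the data were seen, 10 members were called between genotypes at day 2, and 39 of 47 culture calls stayed. The replicate block by experiment in the fit of all libraries kept 49 of 50 culture calls and called 0 members between genotypes.

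Leaving out 1 library in turn, which also raised the genes tested from 14034 to between 14973 and 15159, gave 11 to 35 called members at WT day 1, 14 to 43 at WT day 2, 1 to 6 from WT day 1 to day 2, 8 to 30 at KO day 1, 14 to 37 at KO day 2, 1 to 2 from KO day 1 to day 2, 0 to 4 between genotypes in monocytes and 0 to 2 for the day 2 interaction. It gave 0 in the other genotype comparisons and the day 1 interaction. The KO against WT difference at day 2 changed sign for 1110002J07Rik, with values on leaving out 1 library from -0.53 (replicate 2 of KO day 2) through -0.12 (replicate 1 of WT day 2) to 2.35, and for Mir9-3hg, from -0.91 (replicate 2 of KO day 2) to 2.64 (log2). With 2 libraries a group, a count of 3 reads came to between 0.164 and 0.500 CPM in a library.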

Other observations

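Noncoding RNAs that GENCODE M21 puts in other classes than lincRNA were outside the rule but appear in the role lists. Kcnq1ot1, an imprinted antisense RNA, had 4.44 and 2.43 CPM in WT monocytes, 27.9 and 30.3 at WT day 1, 18.1 and 6.95 at WT day 2, 2.21 and 0.851 in KO monocytes, 13 and 24.2 at KO day 1 and 17.5 and 7.2 at KO day 2. It rose by 3.07 ± 0.66 at WT day 1, 3.60 ± 0.69 at KO day 1 and 2.99 ± 0.68 at KO day 2 on the log2 scale (edgeR adjusted p = 0.00952, 0.00756 and 0.0131). Snhg17, a snoRNA host, had 7.05 and 5.8 CPM in WT monocytes, 29.7 and 47.4 at WT day 1, 9.43 and 10.5 at WT day 2, 4.93 and 5.81 in KO monocytes, 23.9 and 37.6 at KO day 1 and 11.8 and 10.6 at KO day 2. It rose by 2.58 ± 0.36 at WT day 1 and 2.52 ± 0.36 at KO day 1 (edgeR adjusted p = 0.00106 and 0.00179), and day 2 was not called in either genotype. Snhg15, another snoRNA host, had 3.98 and 1.58 CPM in WT monocytes, 24 and 35.5 at WT day 1, 21.3 and 19.9 at WT day 2, 5.71 and 3.76 in KO monocytes, 15.3 and 30.6 at KO day 1 and 12.8 and 12.8 at KO day 2. It rose by 3.39 ± 0.51 at WT day 1, 2.86 ± 0.50 at WT day 2 and 2.28 ± 0.48 at KO day 1 (edgeR adjusted p = 0.00158, 0.00287 and 0.012), and the KO day 2 change was 1.44 ± 0.48 (edgeR adjusted p = 0.0613). Dleu2, a miRNA host gene, had 61.2 and 77.3 CPM in WT monocytes, 13.5 and 20.8 at WT day 1, 21.3 and 11.3 at WT day 2, 52.4 and 29.7 in KO monocytes, 18.7 and 17.8 at KO day 1 and 22.2 and 14 at KO day 2. It fell in WT by 2.01 ± 0.42 at day 1 and 2.09 ± 0.42 at day 2 on the log2 scale (edgeR adjusted p = 0.00786 and 0.0057), and in KO the changes were -1.17 and -1.19 (edgeR adjusted p = 0.0827 and 0.0694), a difference between genotypes that was not tested here. 2410006H16Rik fell in WT by 2.13 ± 0.49 at day 1 and 1.77 ± 0.48 at day 2 on the log2 scale (edgeR adjusted p = 0.0122 and 0.0244), and in KO the changes were -1.30 and -1.10 (edgeR adjusted p = 0.0954 and 0.137). Gas5 and Zfas1, both snoRNA hosts, were called in none of the comparisons with monocytes. Off the autosomes, 4 of 645 lincRNAs passed the level rule and are not described here.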
